A study of Mus musculus with 14 samples.

Results

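The genes described here are the core of the hedgehog pathway: the ligand genes Shh, Ihh and Dhh, the receptor genes Ptch1 and Smo, the transcription factor genes Gli1, Gli2 and Gli3, and Hhip, which encodes a ligand-binding inhibitor. Members were all probes whose only gene symbol in the array's platform annotation was one of these 9 names. That rule found 10 of the 21582 probes of the series, 1 for each gene and a further one for Ptch1, covering 9 of 9 genes, and all 10 could be tested. The data are 14 two-colour arrays of RNA from C57Bl6 mouse fetuses delivered by caesarean section on gestational day 19. Mothers of the alcohol-fed group (n = 7) had about 180 to 200 mg/dl ethanol on gestational days 15 to 18, and those of the pair-fed group (n = 7) were given maltose dextrin over the same days. Every array also carried, in the other dye, the same pool of RNA from 7 animals fed ad libitum, which serves as reference and as untreated control. The strain and the timed pregnancy are common to all groups, the mothers of both diet groups were fed freely up to gestational day 14, and no label used here names the tissue. On the length of ethanol exposure the labels differ, with 4 days given by the protocol against 5 days by the sample titles.

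Hedgehog ligands are secreted, lipid-modified proteins that bind Ptch1 on a receiving cell. Unliganded Ptch1 keeps the membrane protein Smo inactive, and ligand binding releases Smo, which then acts at the primary cilium so that Gli proteins activate their targets. Ptch1, Hhip and Gli1 are themselves classic targets of the pathway, so that their transcripts are widely used as readouts of its activity. In the fetus the ligands pattern the neural tube, limbs, gut, lung, skeleton and face, and the facial midline in particular is known to be sensitive both to loss of hedgehog signalling and to ethanol.

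Each value below is a log2 ratio of sample over pool, centred on its array's median, so that 0 means no difference from the pool beyond that of the median probe. That the ratio runs sample over pool is likely, since the labels list the sample as the first channel, but is not stated. If it runs the other way, every sign below turns. Exact zeros and values at the table's maximum were read as placeholders and left out, which removed 6 of the 140 member values. Array 6 of the pair-fed group, array 7 of the same group and array 6 of the alcohol-fed group held the most placeholders (3155, 2052 and 1708 of all values). Members lay at the edge of their group on these arrays and on others. Alcohol-fed array 6 gave the lowest or highest value of its group for 6 of the 9 member probes measured on it, where the share over all probes with 14 values was 47.2%. Pair-fed array 6 did so for 5 of 8, with 40.1% over all probes, and pair-fed array 7 for 3 of 9, with 33.7%. Among the other arrays the count ran from 0 (alcohol-fed array 7, pair-fed array 1) to 5 of 10. The latter was alcohol-fed array 1, with 29.3% over all probes and 980 placeholders. Values that moved by over 1.5 times, or changed sign or call, without 1 of the 3 arrays with most placeholders are also given without it. The labels name no litters, and the p-values measure spread between these samples only, which may be technical. No spot brightness was available, so whether a probe lay above background is unknown.

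The promoter windows of 4 genes are printed because they belong to the members named most below: Ptch1, Hhip and Ihh, the genes with a probe called below the pool in at least 1 group, and Gli2, the only member window with a match to the motif searched. The sequences are RefSeq's, build GRCm38.p6, written 5′ to 3′ on the gene's strand, and end at the base before the annotated transcript start. The Hhip window is shorter because it ends before the gene's outermost annotated start, and the Ptch1 and Gli2 windows lie within the annotated span of their genes. Capitals mark the motif.
Ptch1, chr13:63565736-63565985, minus strand: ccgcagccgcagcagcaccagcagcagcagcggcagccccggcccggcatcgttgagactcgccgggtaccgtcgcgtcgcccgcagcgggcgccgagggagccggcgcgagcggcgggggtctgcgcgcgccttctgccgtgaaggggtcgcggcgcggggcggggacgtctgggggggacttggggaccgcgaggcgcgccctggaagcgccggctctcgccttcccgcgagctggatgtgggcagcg
Hhip, chr8:80058061-80058258, minus strand: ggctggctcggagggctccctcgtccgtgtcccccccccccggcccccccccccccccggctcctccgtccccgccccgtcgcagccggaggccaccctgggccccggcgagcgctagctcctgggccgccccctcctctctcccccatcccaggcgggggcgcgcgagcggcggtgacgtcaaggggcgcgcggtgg
Ihh, chr1:74951673-74951922, minus strand: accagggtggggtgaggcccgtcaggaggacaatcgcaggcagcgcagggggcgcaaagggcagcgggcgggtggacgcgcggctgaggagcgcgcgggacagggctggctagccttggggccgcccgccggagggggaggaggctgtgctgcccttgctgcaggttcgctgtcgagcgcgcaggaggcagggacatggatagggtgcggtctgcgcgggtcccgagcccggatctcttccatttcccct
Gli2, chr1:119053620-119053869, minus strand: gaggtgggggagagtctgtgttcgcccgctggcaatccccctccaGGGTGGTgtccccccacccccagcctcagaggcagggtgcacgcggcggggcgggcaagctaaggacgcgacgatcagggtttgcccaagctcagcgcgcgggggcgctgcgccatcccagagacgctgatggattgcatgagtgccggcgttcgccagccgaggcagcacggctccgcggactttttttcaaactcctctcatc

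The Gli consensus GACCACCCA was searched on both strands of the 250 bases before each start. It occurred in 0 of the 7 member windows and in 0.225% of all 32851 windows. The shorter core ACCACCC, which lies within the consensus, occurred in 1 of the 7, in Gli2 as its reverse complement GGGTGGT, and in 3.92% of all windows. Shh and Gli1 are not among these windows. A match is a string of letters and not a measured site, and a window without one says nothing about Gli binding elsewhere.

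No hedgehog member differed between alcohol-fed and pair-fed fetuses. Limma, fitted over all 20876 probes that had at least 4 values in each group, called 0 of the 10 member probes (Benjamini-Hochberg adjusted p of 0.9996 for each), and 0% of all probes. At an unadjusted p under 0.05 it called 0 of 10 members and 4.22% of all probes. Exact permutation tests of single probes, two-sided, called 0 of 10. These were run on the members only, so no share over all probes stands beside that count. Groups that did not overlap were seen for 0 of the 5 members measured on all 14 arrays and for 0.00682% of all such probes. The median difference over the 10 members was 0.36 on the log2 scale, beside 0.01 over all probes, with 7 of them above 0 and 3 below. The intervals are wide. A 4-fold difference lay outside the 95% interval of 7 members, and a 2-fold difference outside that of 0 members.

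**Figure D1:**
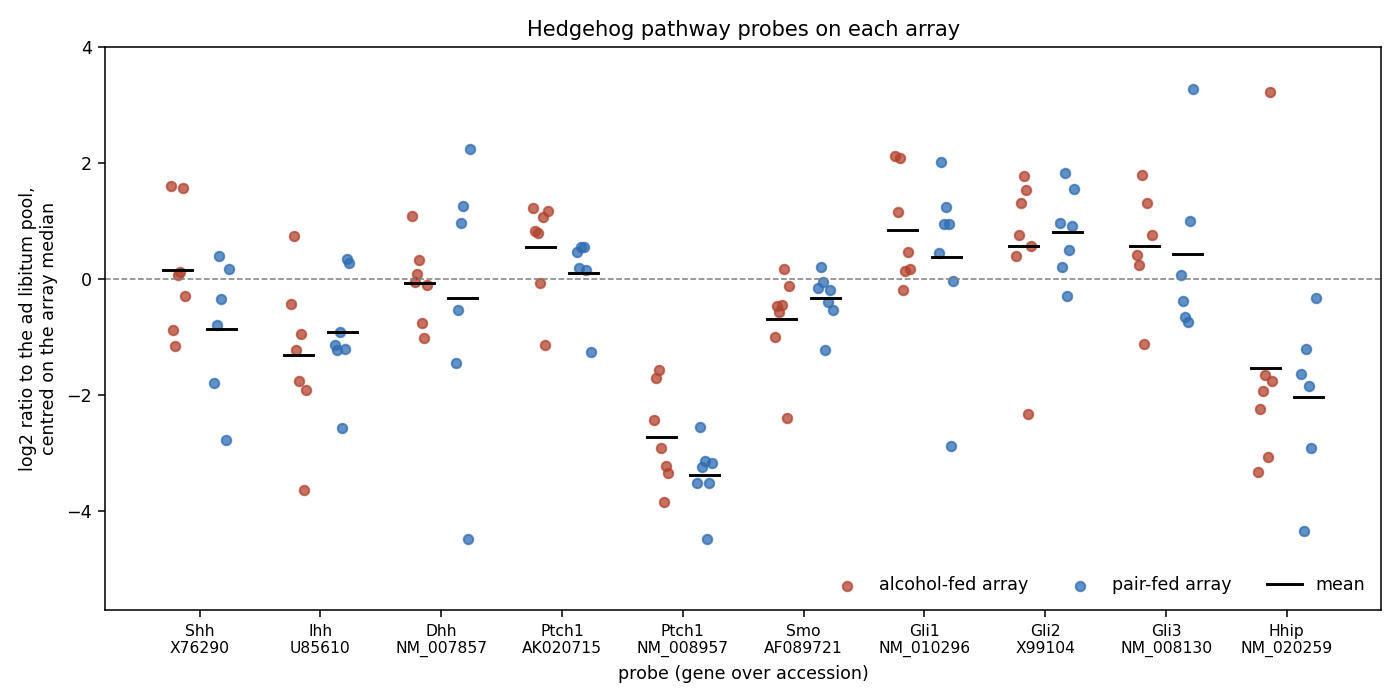
Centred log2 ratio to the ad libitum pool (vertical axis) of each hedgehog probe (horizontal axis) on every alcohol-fed array (red) and pair-fed array (blue), with the mean of each group as a black bar. The groups overlap for all 10 probes, and only Ptch1 probe NM_008957 lies below 0 on all 14 arrays.

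Among the ligands, Shh had the widest distance between the groups. Sonic hedgehog is the ligand of notochord, floor plate, lung and gut epithelium. Its log2 ratios ran from -1.16 to 1.61 with a median of 0.08 in 7 alcohol-fed samples, and from -2.77 to 0.40 with a median of -0.56 in 6 pair-fed samples. Each group held values on both sides of 0, and the ranges overlapped. The log2 difference, alcohol-fed minus pair-fed, was 1.00 ± 0.60 (SE), with a 95% interval of -0.27 to 2.28. Without pair-fed array 6, which gave the lowest value, it was 0.62, and without the 3 arrays with most placeholders 0.54.

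Indian hedgehog, the ligand of growth-plate cartilage and gut epithelium, lay mostly below the pool in both groups. Ihh ratios ran from -3.63 to 0.75 with a median of -1.22 in alcohol-fed samples and from -2.57 to 0.36 with a median of -1.13 in pair-fed samples (n = 7 each). The value was below 0 on 6 of 7 alcohol-fed arrays and on 5 of 7 pair-fed arrays. The difference between the groups was -0.39 ± 0.60 (95% interval -1.65 to 0.86). It was -0.0052 without alcohol-fed array 6, -0.18 without pair-fed array 6 and -0.19 without pair-fed array 7, and turned to 0.49 without these 3 arrays, the ones with most placeholders. Desert hedgehog, the ligand of Schwann cells and Sertoli cells, was centred near the pool. Dhh ratios ran from -1.02 to 1.09 in alcohol-fed samples (median -0.05, n = 7) and from -4.47 to 2.24 in pair-fed samples (median 0.22, n = 6). The pair-fed spread was set largely by arrays 6 and 7. The difference was 0.27 ± 0.83 with all arrays, -0.56 without pair-fed array 6, 0.78 without pair-fed array 7 and 0.43 without alcohol-fed array 6.

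The 2 probes of Ptch1, the ligand receptor and inhibitor of Smo, lay far apart in their ratios to the pool. Their differences between the groups had the same sign. Probe NM_008957, whose accession is a RefSeq transcript of Ptch1, had ratios from -3.84 to -1.56 in alcohol-fed samples (median -2.90) and from -4.48 to -2.55 in pair-fed samples (median -3.24, n = 7 each). All 14 values were below 0, and the groups overlapped between -3.84 and -2.55. The difference was 0.66 ± 0.43 (95% interval -0.25 to 1.57), and leaving out any 1 array moved it no farther than 0.47 to 0.85. Probe AK020715, a cDNA clone, had ratios from -1.14 to 1.24 in alcohol-fed samples (median 0.84, n = 7) and from -1.25 to 0.56 in pair-fed samples (median 0.33, n = 6). It was above 0 on 5 of 7 and 5 of 6 arrays. Here the difference was 0.44 ± 0.47 (95% interval -0.55 to 1.44). It was 0.17 without pair-fed array 7 and 0.73 without alcohol-fed array 6.

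**Figure D2:**
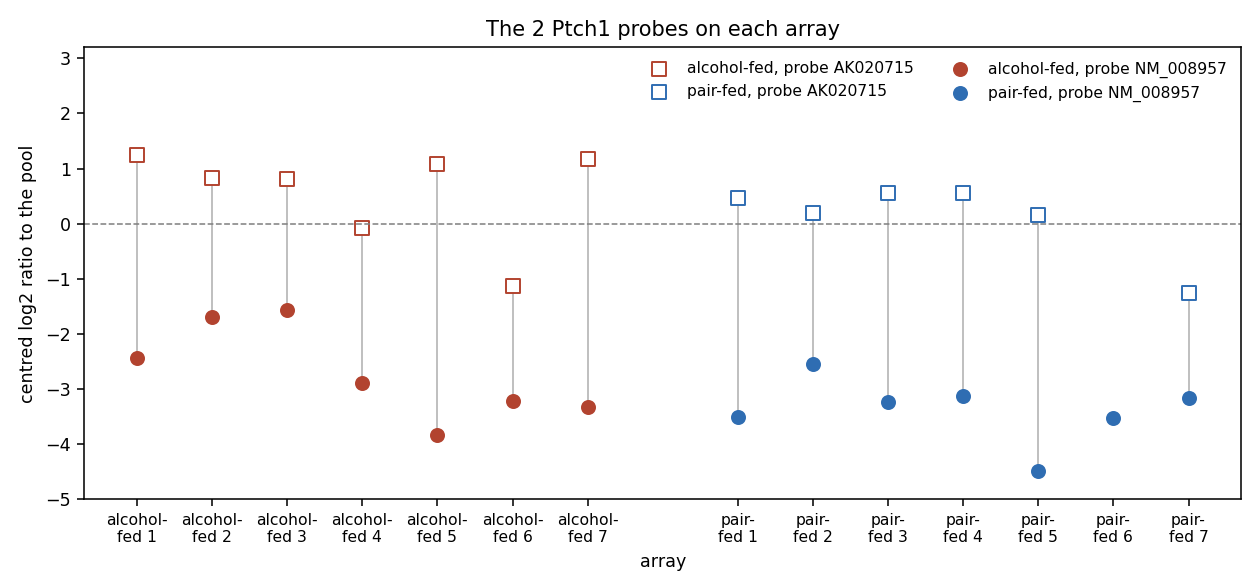
Centred log2 ratio to the pool (vertical axis) of Ptch1 probes AK020715 (open squares) and NM_008957 (filled circles) on each array (horizontal axis), with a grey line joining the values of an array. On each of the 13 arrays that measured both, AK020715 is the higher, by 1.91 to 4.92.

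Within an array, AK020715 exceeded NM_008957 by 2.08 to 4.92 in alcohol-fed samples (mean 3.27 ± 1.11, SD, n = 7) and by 1.91 to 4.64 in pair-fed samples (mean 3.46 ± 0.98, SD, n = 6). Across 13 arrays, after each group mean was subtracted, the probes correlated at r = 0.09, given as a description. Disagreement between probes of a gene was common on these arrays. Of 866 genes with exactly 2 tested probes, 4.62% had mean ratios at least as far apart as those of Ptch1 in the alcohol-fed group and 3.70% in the pair-fed group, with a median distance of 0.80 and 0.86. Across these genes, which are not independent replicates, the mean ratios of one probe and the other correlated at r = 0.03 in the alcohol-fed group and 0.05 in the pair-fed group. A ratio to the pool given below for a gene with a single probe is therefore the value of that probe. Whether each row of the deposited table carries the name of its own probe was not tested, and the gene given to every value here rests on it. Which Ptch1 probe follows the transcript was not tested.

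Smo, the signal-transducing membrane protein, had the smallest standard error of the members. Its ratios ran from -2.39 to 0.18 in alcohol-fed samples (median -0.46) and from -1.22 to 0.22 in pair-fed samples (median -0.19, n = 7 each). It was below 0 on 6 of 7 arrays in each group. The difference was -0.35 ± 0.41 (95% interval -1.22 to 0.52), and without alcohol-fed array 6 it was -0.07.

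Gli1 and Gli2 lay above the pool in most samples of each group, and Gli3 in most alcohol-fed samples only. Gli1, a transcriptional activator that is itself switched on by the pathway, ran from -0.19 to 2.12 in alcohol-fed samples (median 0.47) and from -2.87 to 2.03 in pair-fed samples (median 0.96, n = 7 each). It was above 0 on 6 of 7 and on 5 of 7 arrays. The difference was 0.47 ± 0.64 (95% interval -0.87 to 1.81), and -0.08 without pair-fed array 6, the one far below the rest. Gli2, the main activator downstream of Smo, ran from -2.33 to 1.78 in alcohol-fed samples (median 0.77) and from -0.28 to 1.83 in pair-fed samples (median 0.92, n = 7 each), above 0 on 6 of 7 arrays in each group. The difference was -0.24 ± 0.56 (95% interval -1.42 to 0.95), 0.25 without alcohol-fed array 6 and -0.11 without pair-fed array 7. Gli3, which acts mainly as a repressor in the absence of ligand, ran from -1.11 to 1.80 in alcohol-fed samples (median 0.59) and from -0.73 to 3.28 in pair-fed samples (median -0.15, n = 6 each). Its difference of 0.13 ± 0.68 changed sign without any of 5 single arrays, over a range of -0.11 to 0.70, the highest without pair-fed array 6.

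Hhip, the hedgehog-interacting protein that binds ligand at the cell surface, was below the pool in nearly every sample. Its ratios ran from -3.32 to 3.23 in alcohol-fed samples (median -1.93, n = 7) and from -4.33 to -0.32 in pair-fed samples (median -1.73, n = 6). The only value above 0 was that of alcohol-fed array 6. The difference was 0.50 ± 0.90 (95% interval -1.39 to 2.40), -0.29 without that array and 0.85 without pair-fed array 7, the highest of its group.

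Against the pool of freely fed controls, 2 of the 10 member probes were called in each group and all of these calls were downward. Limma called Ptch1 probe NM_008957 and Ihh in the alcohol-fed group, and Ptch1 probe NM_008957 and Hhip in the pair-fed group. Over all probes 23.5% were called in the alcohol-fed group and 21.3% in the pair-fed group, so that the members' share is near the background. At an unadjusted limma p under 0.05, 4 of the 10 members passed in the alcohol-fed group (Smo and Hhip besides those called) and 3 in the pair-fed group (Ihh besides those called), where the shares over all probes were 38.5% and 36.1%. Downward calls made up 15.5% and 13.5% of all probes, and upward calls, of which the members had 0, 8.02% and 7.86%. The member median was 0.05 in the alcohol-fed group and -0.33 in the pair-fed group, beside 0.01 and -0.03 over all probes. The diet groups share the pool, a single control sample, so the test leaves out the spread among controls, and dyes were not swapped. Fewer cells of a type, less RNA per cell and an effect of the dye on a probe cannot be told apart in these samples.

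**Figure D3:**
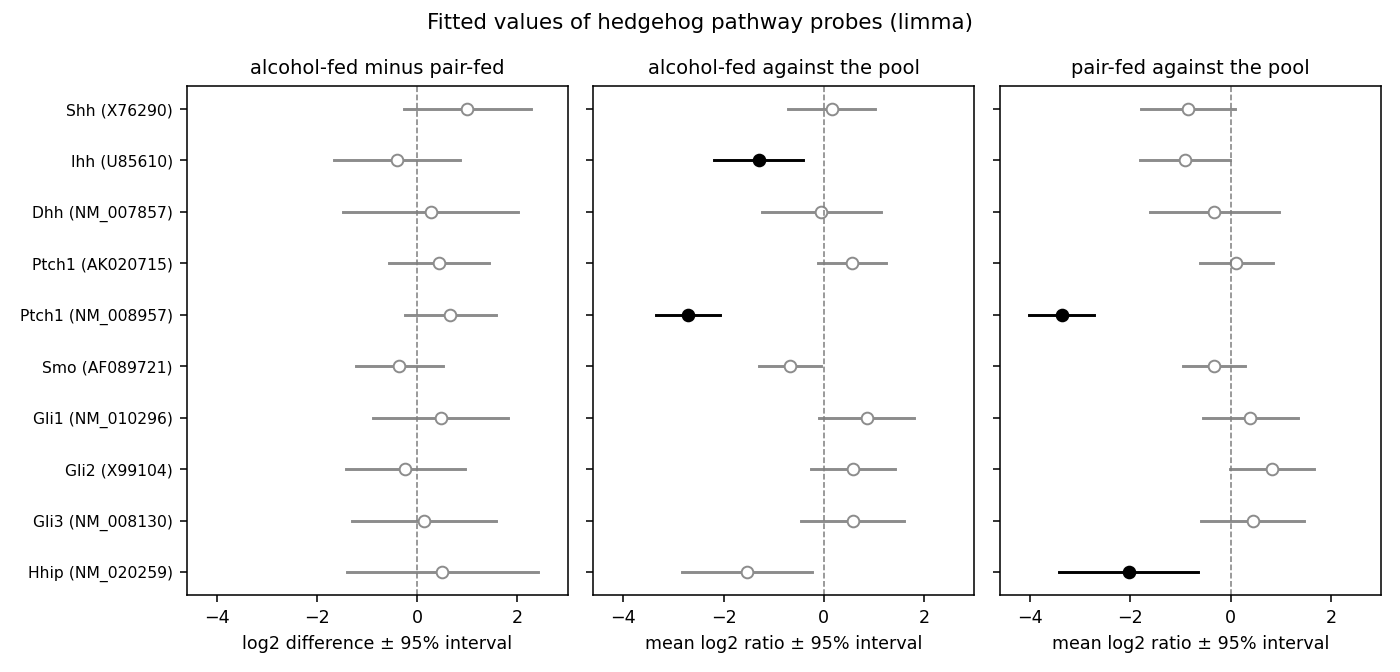
Fitted value of each hedgehog probe (rows) with its 95% interval from limma on the log2 scale, as the difference alcohol-fed minus pair-fed and as the mean ratio to the pool in each group. Filled black points passed an adjusted p of 0.05, namely Ihh and Ptch1 NM_008957 in the alcohol-fed group and Ptch1 NM_008957 and Hhip in the pair-fed group. All 10 intervals of the difference cross 0.

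Ptch1 probe NM_008957 fell by 2.71 ± 0.31 (SE) on the log2 scale in the alcohol-fed group (adjusted p = 4.80e-06, limma) and stood at -3.37 ± 0.31 in the pair-fed group (adjusted p = 3.27e-07, limma). Its ratio to the pool was thus 6.54-fold lower in alcohol-fed fetuses and 10.3-fold lower in pair-fed fetuses, and lay at percentiles 2.80 and 1.14 of all probes. Of the 14666 probes with 14 values, 5.09% were below 0 on all arrays and 3.82% above, beside 1 and 0 of the 5 members with 14 values. Both calls held without any single array. The gene's other probe stood at 0.56 ± 0.32 in the alcohol-fed group and 0.12 ± 0.35 in the pair-fed group and passed in neither (limma adjusted p = 0.207 and 0.837). Without the 3 arrays with most placeholders that probe stood at 0.84 in the alcohol-fed group and passed upward (limma adjusted p = 0.0238). Without alcohol-fed array 6 alone it had the same value and did not pass (limma adjusted p = 0.0565), and without pair-fed array 7 it stood at 0.39 in the pair-fed group.

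Ihh stood at -1.30 ± 0.42 in the alcohol-fed group and passed (limma adjusted p = 0.0335), and at -0.91 ± 0.42 in the pair-fed group, where it did not (0.129). That the groups differ in this is not shown, since their difference did not pass. The alcohol-fed call ended without array 3, 4, 5, 6 or 7 of that group, with values between -1.36 and -0.92 and limma adjusted p of 0.0506 to 0.111. Without the 3 arrays with most placeholders the alcohol-fed value was -0.92 (limma adjusted p = 0.0677) and the pair-fed value -1.40 (0.0192), so that it passed in the pair-fed group alone.

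Hhip stood at -1.53 ± 0.61 in the alcohol-fed group (limma adjusted p = 0.0771) and at -2.04 ± 0.66 in the pair-fed group, where it passed (0.0369). Without alcohol-fed array 6, its only array above 0, Hhip stood at -2.33 in the alcohol-fed group and passed (limma adjusted p = 0.00146). The pair-fed call ended without array 1, 2, 4 or 5 of that group, with values between -2.12 and -1.58 and limma adjusted p of 0.0599 to 0.118.

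The remaining members did not pass in either group. Smo stood at -0.68 ± 0.29 in the alcohol-fed group and -0.33 ± 0.29 in the pair-fed group (limma adjusted p = 0.0966 and 0.441), with the alcohol-fed value at -0.40 without alcohol-fed array 6. Gli1 stood at 0.86 ± 0.45 and 0.39 ± 0.45 in alcohol-fed and pair-fed fetuses, and Gli3 at 0.57 ± 0.48 and 0.44 ± 0.48. Without pair-fed array 6 the pair-fed values were 0.93 for Gli1 (limma adjusted p = 0.0717) and -0.13 for Gli3. Gli2 stood at 0.58 ± 0.40 in alcohol-fed and 0.82 ± 0.40 in pair-fed fetuses (limma adjusted p = 0.294 and 0.149). Without alcohol-fed array 6 Gli2 passed upward in both, at 1.07 in the alcohol-fed group (limma adjusted p = 0.0240) and 0.82 in the pair-fed group (0.0471). Shh stood at 0.15 ± 0.41 and -0.85 ± 0.44, and Dhh at -0.06 ± 0.56 and -0.33 ± 0.61, again alcohol-fed before pair-fed. Without alcohol-fed array 6 the alcohol-fed values were -0.082 for Shh and 0.10 for Dhh. Without pair-fed array 6 the pair-fed values were -0.46 for Shh and 0.50 for Dhh, and without pair-fed array 7 that of Dhh was -0.84.

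**Figure D4:**
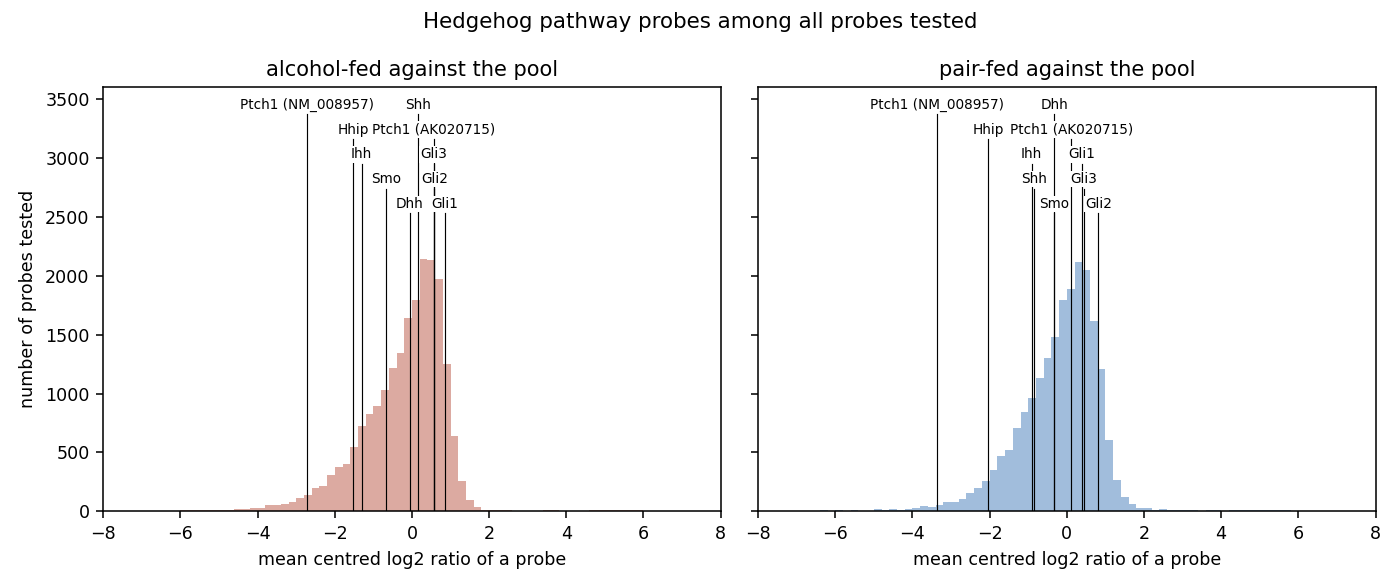
Number of tested probes (vertical axis) by mean centred log2 ratio to the pool (horizontal axis), for the alcohol-fed group on the left and the pair-fed group on the right, with a line at each hedgehog probe. Ptch1 NM_008957 and Hhip lie in the lower tail, at -2.71 and -1.53 in the alcohol-fed group and at -3.37 and -2.04 in the pair-fed group, while the Gli probes lie above the centre.

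Among themselves the members did not move as 1 block. Over arrays, after each group mean was subtracted, 22 of the 45 probe pairs correlated above 0 and the median r was -0.01, all of it a description of 11 to 14 arrays that share a pool. The highest value was between Smo and Gli2 (r = 0.79, 14 arrays), followed by Shh and Dhh (0.66, 13 arrays) and Dhh and Gli1 (0.64, 13 arrays). The lowest were Dhh with Gli3 (-0.79, 11 arrays) and Hhip with Ptch1 AK020715 (-0.76, 13 arrays). Alcohol-fed array 6 was the lowest of its group for both Smo and Gli2, and pair-fed array 6 was the lowest for Shh, Dhh and Gli1 and the highest for Gli3, so these values rest in part on those arrays.

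The probes of other genes most like each member were sought among 11468 named probes with 14 values, by Pearson r over 14 arrays with group means subtracted. Ascl2 (0.92) and Rbm38 (0.89) were nearest to Smo, and Rinl (0.91) and Mrrf (0.90) to Gli2. Ms4a3 (0.90) and Itgax (0.89) were nearest to Gli1, and Pigw (0.88) and Ptgir (0.86) to Ptch1 NM_008957. For Ihh they were 4933416O17Rik (0.92) and 2900053O20Rik (0.87). Each r was picked as the highest among many candidates over 14 arrays. How high it runs for other probes was not computed, so no relation is read from it.

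Other genes of the pathway, from 3 lists chosen with earlier results of these data known, also showed 0 calls between alcohol-fed and pair-fed fetuses, among 89 measured genes. Against the pool their counts stand beside the shares over all probes, 8.02% called higher and 15.5% lower in the alcohol-fed group and 7.86% and 13.5% in the pair-fed group. Here and in the lists below, a gene counts as called if any of its probes passed. Genes with several probes thus have more chances than the single probes behind these shares. For processing, release and co-reception of the ligand, 10 genes were measured: 0 rose and 2 fell in the alcohol-fed group, and 0 rose and 4 fell in the pair-fed group. The median over their probes was -0.55 and -0.91, beside 0.01 and -0.03 over all probes. The ligand co-receptor Cdon stood at -1.67 ± 0.38 in alcohol-fed and -2.65 ± 0.38 in pair-fed fetuses and fell in both (limma adjusted p = 0.00456 and 8.18e-05). Lrp2, an endocytic receptor that binds Shh, fell in both with both of its probes, at -2.65 ± 0.48 and -1.89 ± 0.36 in the alcohol-fed group and -1.48 ± 0.48 and -1.82 ± 0.38 in the pair-fed group. The co-receptor Gas1 stood at -1.82 ± 0.72 in the alcohol-fed group, where it did not pass (limma adjusted p = 0.0751), and fell in the pair-fed group at -3.82 ± 0.72 (0.00130). The glypican Gpc5 stood at -0.71 ± 0.29 in the alcohol-fed group (not past, 0.0812) and fell in the pair-fed group at -0.96 ± 0.27 (limma adjusted p = 0.0184), a call that ended without pair-fed array 1 (0.0540) or 5 (0.0645). Disp1, which releases the lipid-modified ligand from the producing cell, and Gas1 had the smallest p between the groups. Their log2 differences of 1.36 ± 0.48 and 2.00 ± 1.02 did not pass (limma adjusted p of 0.9996).

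Of 41 genes of the cilium and of transduction, 5 rose and 6 fell in the alcohol-fed group, and 7 rose and 6 fell in the pair-fed group, against 23.5% and 21.3% of all probes called in either direction. Sufu, the inhibitor that holds Gli proteins in the cytoplasm, again had probes that disagreed. One rose to 5.66 ± 0.55 in alcohol-fed and 5.09 ± 0.55 in pair-fed fetuses (limma adjusted p = 8.30e-07 and 3.37e-06), while the other stood at -0.02 ± 0.38 and 0.57 ± 0.38. The ciliary kinesin Kif7 fell in both groups, at -2.36 ± 0.42 and -2.83 ± 0.42, as did the protein kinase A subunit Prkar1a at -3.43 ± 0.36 and -3.53 ± 0.36. A probe of the kinase Dyrk1a fell in both, at -1.0 ± 0.35 in the alcohol-fed group and -2.27 ± 0.35 in the pair-fed group, with the gene's other probe at 0.50 and 0.37. Its alcohol-fed call (limma adjusted p = 0.0483) ended without any of 10 single arrays. Dyrk1a and the intraflagellar transport gene Ift27 had the smallest p between the groups, with log2 differences of 1.27 ± 0.50 and -1.38 ± 0.57 that did not pass (limma adjusted p of 0.9996). Ift27 stood at -0.22 ± 0.40 in the alcohol-fed group and rose to 1.16 ± 0.40 in the pair-fed group, a call (limma adjusted p = 0.0494) that ended without any of 10 single arrays.

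Of 38 reported targets and tissue responders, 5 rose and 9 fell in the alcohol-fed group, and 0 rose and 9 fell in the pair-fed group, against the same 23.5% and 21.3% of all probes. The floor plate and endoderm factor Foxa2 fell in both groups with one probe, at -2.11 ± 0.53 and -2.33 ± 0.44, and stood at 0.30 and 0.04 with the other. The first probe had alcohol-fed values on 4 arrays only, the fewest allowed. It could thus be tested in only 10 of the 14 fits that left out 1 array. With placeholders kept, the first probe stood at -1.17 in the alcohol-fed group and did not pass (limma adjusted p = 0.0978). Snai1, a repressor active in epithelial-to-mesenchymal transition, fell in both at -1.95 ± 0.38 and -2.01 ± 0.38. The sclerotome factor Pax1 stood at -2.46 ± 0.87 in the alcohol-fed group, where it did not pass (limma adjusted p = 0.0551), and fell in the pair-fed group at -4.10 ± 0.71 (0.00128). Pax1, too, had alcohol-fed values on 4 arrays only. The T-box gene Tbx2 rose in the alcohol-fed group at 1.19 ± 0.27 (limma adjusted p = 0.00456) and stood at 0.26 ± 0.27 in the pair-fed group. Tbx2 and the heart factor Nkx2-5 had the smallest p between the groups, with log2 differences of 0.93 ± 0.38 and 1.44 ± 0.52 that did not pass (limma adjusted p of 0.9996).

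Markers of the cells that make or receive hedgehog ligands were measured beside the members. Of 38 such genes, 3 rose and 13 fell in the alcohol-fed group, and 2 rose and 14 fell in the pair-fed group. Over all probes 8.02% were called higher and 15.5% lower in the alcohol-fed group, and 7.86% and 13.5% in the pair-fed group. The gene given first for each list is the one with the smallest p in either group. Of 10 chondrocyte markers 0 rose in either group, with 2 falling in alcohol-fed and 3 in pair-fed fetuses. Their median was -0.07 and -0.56, and the cartilage collagen Col9a1 stood at -1.88 ± 0.29 and -1.28 ± 0.34. The pair-fed Col9a1 call ended without pair-fed array 4 (limma adjusted p = 0.0556) or 5 (0.0600). Of 5 gut epithelium markers 2 fell in alcohol-fed and 1 in pair-fed fetuses, with the claudin Cldn3 at -2.89 ± 0.26 and -2.71 ± 0.26. Their median was -0.55 and -0.60. Passing in neither group were Cdx2 at 0.36 and -0.05, Vil1 at -0.55 and -0.60, and Fabp2 at 0.32 and -0.28. Here and for lung and epidermis, the genes that passed in neither group were named after their values were seen. Of 6 lung epithelium markers 3 fell in each group, with the phosphate transporter Slc34a2 at -2.28 ± 0.27 and -1.28 ± 0.25. Their median was -1.08 and -0.97. Passing in neither group were Sftpa1 at -0.03 and 0.16, Sftpd at 0.18 and 0.23, and Scgb1a1 at -0.25 and -0.66. Of 4 hypertrophic cartilage and bone markers 1 rose and 2 fell in each group, with the osteocalcin gene Bglap the one that rose, to 1.24 ± 0.25 and 1.13 ± 0.25. The 2 that fell, named after their values were seen, were the bone sialoprotein gene Ibsp at -1.21 ± 0.35 and -1.02 ± 0.35 and the collagenase gene Mmp13 at -1.59 ± 0.51 and -2.30 ± 0.60. Of 6 epidermis markers 3 fell in alcohol-fed and 2 in pair-fed fetuses, with the placode receptor Edar at -2.16 ± 0.52 and -2.94 ± 0.52. Of 3 notochord and floor plate markers, Foxa2 among them, 1 fell in alcohol-fed and 2 in pair-fed fetuses. Of 4 Schwann cell markers 2 rose in the alcohol-fed group, and 1 rose and 1 fell in the pair-fed group, with the transcription factor Egr2 at 4.97 ± 0.38 and 5.16 ± 0.38. The median over the probes of this list was 0.26 and 0.09. The others, named after their values were seen, were Foxd3 at 1.12 ± 0.32 and 0.27 ± 0.32, Sox10 at -0.11 ± 0.43 and -1.47 ± 0.43, and Mbp, which passed with no probe. The part of these cell types in the ratios of Ihh, Ptch1 and Hhip was not tested.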

How the data were processed

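RNA was labelled with a Genisphere Cy3/Cy5 kit, samples in Cy5 and the pool in Cy3, per the labels' protocols. The table deposited by the authors holds a log2 ratio for each probe on each array. The log2 scale is inferred from the range of the values. Centring and direction are not stated, and the steps from scan to ratio were not given in the labels used. Deposited array medians ran from -0.43 to 0.63.

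Exact zeros and values at 16.61, the table's maximum, were set to missing and each array was centred on its median. Probes measured on 4 or more arrays in both groups were tested (20876, leaving out 706) with limma 3.58.1 in R 4.3.3, all 14 arrays in 1 fit, two-sided, Benjamini-Hochberg adjusted p under 0.05. Printed errors are limma standard errors, which take 1 moderated variance per probe from both groups. The fit was also run on simulated ratios with independent normal noise. These held no effect of the pool and no outlying arrays, so that run does not test the calls made here. Names come from the platform annotation, which is old (16635 probes with 1 symbol, 113 several, 4834 none), of which 15957 matched RefSeq by gene number. No 2 arrays shared over 0.269% of values, so no array repeats another, and arrays correlated at 0.257 to 0.692 over probes. Each array counted as 1 replicate, though the labels name no litters. The number of arrays limits the precision.

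Members and lists were chosen with earlier results of these data known. Named genes are all members, per pathway list up to 4 genes with the smallest p called against the pool and 2 between the groups, per marker list the gene with the smallest p, and the 2 probes most like each member with 14 values. Alternatives were other normalizations, placeholder and missing-value rules, array weights, robust eBayes, single-group fits, exact permutation, a replicate block and leaving out arrays. Same-numbered arrays deviated together at r = -0.08 to 0.18, which does not settle whether the numbers pair samples. The main fit treats the samples as unpaired.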

Additional observations from a re-analysis of the deposited data

Results flagged for a closer look

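In 4 of the 20 sets of values, 1 per member probe and group, a single array lay far outside the others by Dixon's gap test. The test's nominal rate is about 1 in 20 such sets, but the sets share arrays and the share over all probes was not computed. Of all probes with 14 values, alcohol-fed array 6 was the lowest or highest of its group for 47.2%. Pair-fed arrays 6 and 7 were so for 40.1% and 33.7%. Gli2 stood at -2.33 on alcohol-fed array 6, with the nearest other array at 0.40, and Hhip stood at 3.23 on the same array, with the nearest at -1.64. Gli1 stood at -2.87 on pair-fed array 6, with the nearest at -0.03. Ptch1 probe AK020715 stood at -1.25 on pair-fed array 7, with the nearest at 0.16. These are the 3 arrays with most placeholders (1708, 3155 and 2052). Their part in these values was not tested.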

How the results depend on the processing

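Ptch1 probe NM_008957 stayed below the pool and past the threshold in both groups under all 12 other settings and all 14 fits that left out 1 array. Between the groups 0 members passed under any of them. The count of members called in the alcohol-fed group was 1 with values as deposited, 5 with array weights, 4 without the 3 arrays with most placeholders (an alternative added after seeing the data), and 1 to 3 without single arrays. In the pair-fed group it was 1 with placeholders kept, 1 over probes with values on all 14 arrays (Hhip is then not tested), 1 with a replicate block, and 1 to 3 without single arrays. The pathway genes called in the pair-fed group, 26 in all, numbered 17 over probes with 14 values, 15 with the group fitted alone and 18 to 27 without single arrays. In the alcohol-fed group, 27 in all, they numbered 19 to 29 without single arrays. Calls over all probes can change with the setting too and are given only for the replicate block below. These counts are therefore no result about the members in particular.

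The replicate block, which rests on numbers alone (4 of 14 arrays correlated best with their own number), gave 2 members and 23 pathway genes in the alcohol-fed group and 1 and 21 in the pair-fed group, with 4231 and 3978 calls over all probes, against 4913 and 4450. The alcohol-fed calls are then Ptch1 probe NM_008957 and Hhip (limma adjusted p = 0.0137), with that of Ihh ended (0.0633), and the pair-fed call of Hhip also ended (-1.24, 0.0569). Those of Foxa2 probe NM_010446 ended in both groups (alcohol-fed -1.08, limma adjusted p = 0.366; pair-fed -1.52, 0.222), as did those of Col9a1, Dyrk1a and Ift27 in 1 group each. Under the block the Hhip difference was -0.29 and Ptch1 probe AK020715 stood at -0.17 in the pair-fed group.

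Differences between alcohol-fed and pair-fed fetuses that changed sign, none past the threshold, were those of Ihh (0.10 with array weights, 0.49 without the 3 arrays), Gli1 (-0.20 without the 3 arrays) and Gli2 (0.12 with array weights, 0.42 without the 3 arrays). Without single arrays the difference ran from -0.56 to 0.78 for Dhh, -0.075 to 0.74 for Gli1, -0.44 to 0.25 for Gli2, -0.11 to 0.70 for Gli3 and -0.29 to 0.85 for Hhip. Against the pool, Shh in the alcohol-fed group turned to -0.11 with array weights and -0.082 without the 3 arrays, and ran from -0.088 to 0.37 without single arrays. Dhh in the alcohol-fed group turned to 0.067 as deposited, 0.079 with quantile normalization and 0.10 without the 3 arrays (-0.25 to 0.10 without single arrays), and in the pair-fed group to 0.067 without the 3 arrays (-0.84 to 0.50). Gli3 in the pair-fed group turned to -0.13 without the 3 arrays (-0.13 to 0.67). The cause of these changes was not tested. Spot brightness was not available, so what signal over background limits is unknown.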
